A study of Arabidopsis thaliana with 4 samples.

Results

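The genes described here belong to the plant heat stress response: HSP101 (AT1G74310), HSP70B (AT1G16030), HSFA2 (AT2G26150), Hop3 (AT4G12400) and Fes1A (AT3G09350). They are 5 of the 22746 probe sets of the array that are not controls, and 1 probe set was used for each gene. Whether probe sets without a gene in the annotation also read these genes was not examined. HSP101, HSP70B and HSFA2 were taken by their probe set identifiers (260248_at, 261838_at and 266841_at), and their names come with that choice, since the platform annotation used here does not list these 3 probe sets. Hop3 (254839_at) and Fes1A (259037_at) were found by symbol in that annotation. The genes were chosen with their signals on these arrays known, so their own differences are described and not tested.

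Rosette leaves of Arabidopsis thaliana, accession Columbia, were compared between plants infested with the silverleaf whitefly, Bemisia tabaci type B, and uninfested plants. The infested plants received 100 adult whiteflies each at an age of 21 days. The adults were removed after 7 days, and leaves carrying nymphs were taken 28 days after release, at a plant age of 7 weeks; developmentally matched leaves came from uninfested plants caged in the same way. All plants were wild type, enclosed in nylon bags, and grown at 23 °C with 8 h of light a day, and each of the 4 arrays (2 infested, 2 uninfested) carried RNA pooled from 20 plants of 2 replicate experiments.

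Heat shock proteins are chaperones that bind unfolded proteins. HSP101 is a ring-shaped ATPase that pulls proteins out of aggregates and hands them to HSP70, and it is needed for plants to acquire tolerance to heat. HSP70 proteins bind and release exposed protein segments in a cycle that co-chaperones set: Fes1 proteins help HSP70 exchange its nucleotide, and Hop proteins bridge HSP70 to HSP90. HSFA2 is a transcription factor whose own gene is switched on by heat stress and by oxidative stress, and which then sustains the expression of chaperone genes. In leaves of unstressed plants the transcripts of such genes are usually scarce, while other members of the same families are made all the time.

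All 5 genes had a high signal on 1 array, infested 2, and a much lower one on the other infested array and on both uninfested arrays. For Fes1A the lower signals were not dim, lying at the 63.8 to 72.3 percentile of their arrays. In RNA of whole leaves, more transcript per cell and more cells with the transcript cannot be told apart. HSP101, the disaggregase gene, had a MAS 5.0 signal of 13.5 on infested 1 and 5534.7 on infested 2, against 55.4 on uninfested 1 and 17.2 on uninfested 2. Infested 2 was thus far above the other 3 arrays, and the groups overlap. MAS 5.0 signals are linear intensities, and 27 control probe sets for bacterial transcripts, which read at most 52.1, mark the level at which a signal cannot be told from none. On infested 1 and uninfested 2, HSP101 lay at or below the highest such control of its array, so the signal of infested 2 was at least 106-fold that of infested 1 and at least 113-fold that of uninfested 2, and it was 99.9-fold that of uninfested 1.

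HSP70B, an inducible cytosolic HSP70 gene, had 166.7 on infested 1 and 10749 on infested 2, against 166.5 on uninfested 1 and 171.6 on uninfested 2. The 3 low arrays of HSP70B lay close together and above the bacterial controls, and infested 1 fell between the uninfested arrays. Infested 2 was 64.5-fold above infested 1, 64.6-fold above uninfested 1 and 62.6-fold above uninfested 2. The mean signal was 5458 ± 7483 in infested and 169.1 ± 3.61 in uninfested leaves (SD, n = 2 each), and for all 5 genes the SD of the infested arrays was larger than their mean.

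HSFA2, the transcription factor gene, had 22.9 on infested 1 and 2812 on infested 2, against 57.7 on uninfested 1 and 25.4 on uninfested 2. As with HSP101, infested 2 alone was high, and both infested 1 and uninfested 2 lay at or below the bacterial controls, so these 2 arrays have no order. The HSFA2 signal on infested 2 was at least 54.0-fold that of infested 1, at least 57.6-fold that of uninfested 2, and 48.7-fold that of uninfested 1.

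Of the co-chaperone genes, Hop3 had 63.7 on infested 1 and 2882 on infested 2, against 50.4 on uninfested 1 and 63.6 on uninfested 2. Hop3 was the 1 gene of the 5 whose groups did not overlap, with infested 1 above uninfested 2 by less than the gap between the uninfested arrays; both infested arrays lay above both uninfested arrays for 29.3% of all probe sets, and infested 1 alone did so for 44.9%. The Hop3 signal on infested 2 was 45.2-fold that of infested 1. On uninfested 1 Hop3 was close to the highest bacterial control of that array, 49.2, so small gaps among its low signals are uncertain.

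Fes1A had 467.8 on infested 1 and 5253 on infested 2, against 504.4 on uninfested 1 and 354.6 on uninfested 2. Fes1A and HSP70B were the 2 genes whose mean lay above the 40th percentile of all probe sets even with infested 2 left out; the other 3 passed that filter through infested 2. Its infested 2 signal was 11.2-fold that of infested 1, and infested 1 lay between the uninfested arrays.

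**Figure D1:**
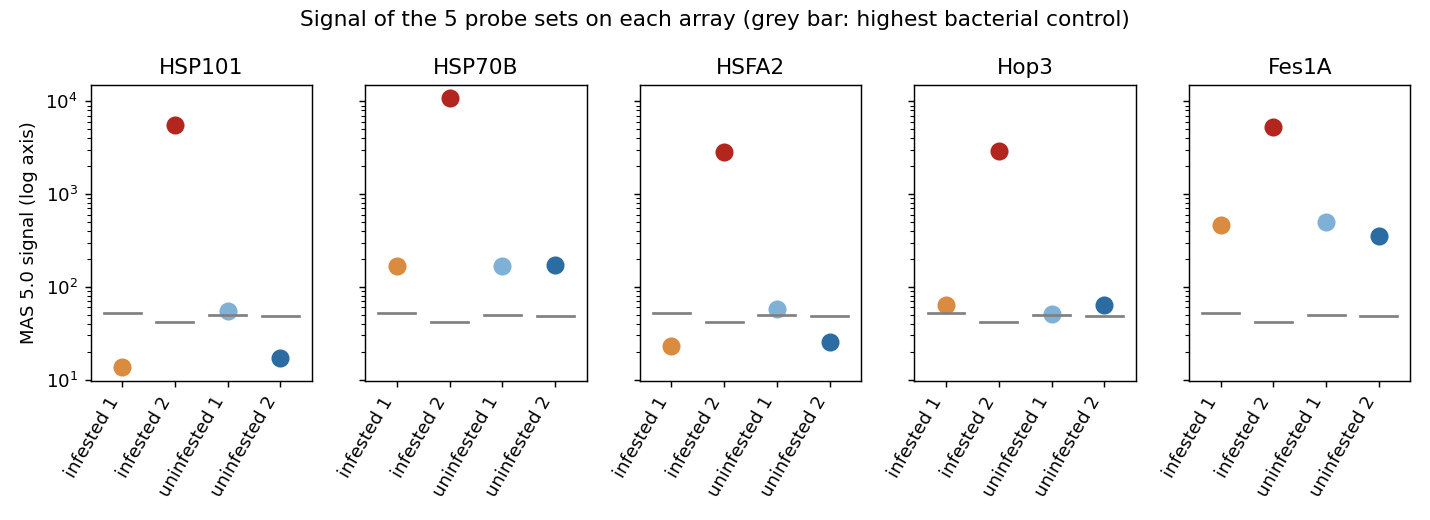
MAS 5.0 signal (log axis) of HSP101, HSP70B, HSFA2, Hop3 and Fes1A on each of the 4 arrays, 1 point per array, with a grey bar at the highest bacterial control of that array. Infested 2 lies far above the other 3 arrays in every panel, and infested 1 lies near the uninfested arrays or, for HSP101 and HSFA2, below the grey bar.

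The log2(signal + 16) scale keeps dim signals from giving extreme ratios and understates the change of dim genes. On it, the mean infested minus uninfested difference was 2.92 for HSP70B, 2.72 for Hop3 and 1.86 for Fes1A. These 3 genes lay above the highest bacterial control of each array, though Hop3 only narrowly on uninfested 1 (50.4 against 49.2). The mean differences join 2 unlike arrays. Infested 1 alone minus the mean of the uninfested arrays gave -0.02 for HSP70B, 0.13 for Hop3 and 0.14 for Fes1A, while infested 2 alone gave 5.86, 5.32 and 3.58 for these genes. For HSP101 and HSFA2 each signal was first raised to the highest bacterial control of its array, a setting added after the data were seen, and infested 2 alone was then above the uninfested mean by 6.35 and 5.35, which understates the gap. The uninfested arrays themselves differed by 0.04 for HSP70B, 0.26 for Hop3 and -0.49 for Fes1A (uninfested 2 minus uninfested 1).

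Such a gap between 1 array and the other 3 was rare. On signal + 16, infested 2 exceeded each of the other arrays at least 8-fold for 33 of the 22746 probe sets, or 0.145%, all 5 genes among them; since the genes were chosen for this pattern, nothing is read from their count. On infested 1, uninfested 1 and uninfested 2, 0 probe sets stood at least 8-fold above the rest, and 0 at least 4-fold, against 52 at 4-fold on infested 2. At 2-fold the counts were 68, 34 and 60 on these arrays and 296 on infested 2. Infested 2 also stood apart downward, with 8 probe sets at least 8-fold below each other array and 38 at least 4-fold below. On infested 1, uninfested 1 and uninfested 2, 0 were 8-fold below, and 0, 2 and 3 were 4-fold below. The fold over the highest other array was 77.7 for HSP101, 57.4 for HSP70B, 38.4 for HSFA2, 36.4 for Hop3 and 10.1 for Fes1A, which gave them places 9, 10, 13, 15 and 28 among all probe sets. With 64 in place of 16 added to each signal the folds of HSP101, HSFA2 and Hop3 were 46.9, 23.6 and 23.1. Of the other 28 probe sets, 16 have no single gene in the annotation and 7 belong to small heat shock protein genes. The remaining 5 are AT5G48570, AT2G20560, AT1G71000, AT5G25450 and AT1G30070. The first 3 are in the gene list described below, and AT5G25450 is among the nearest profiles. AT1G30070 is named here after its values were seen.

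**Figure D2:**
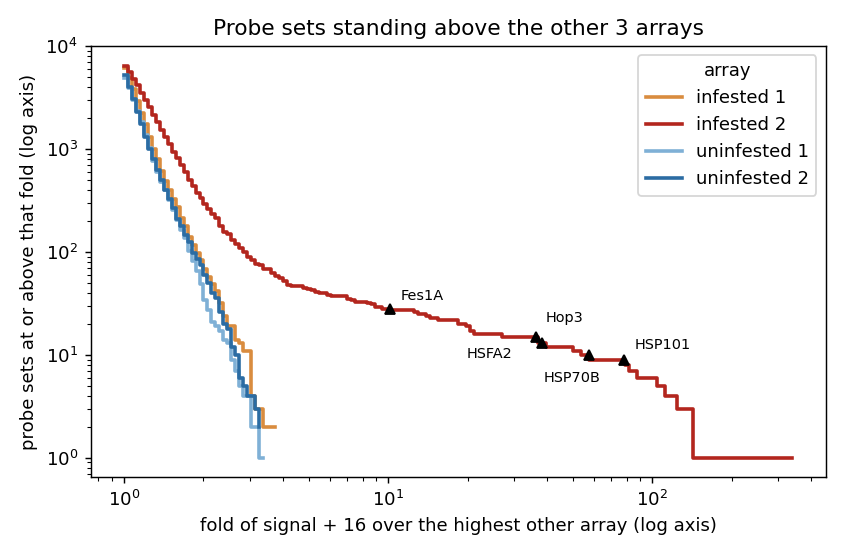
Number of probe sets (log axis) whose signal + 16 on one array is at or above a given fold (log axis) over the highest of the other 3 arrays, 1 line per array; triangles mark the 5 genes on the line of infested 2. The lines of infested 1 and both uninfested arrays end below 4-fold, while that of infested 2 runs on, with HSP101 at 77.7-fold and Fes1A at 10.1-fold.

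The deposited signals had already been scaled to one mean by the authors. Their equal trimmed mean on every array, 500.0, was set by that scaling and says nothing on how alike the arrays were. After it, the median signal of the probe sets that are not controls was 205.2 and 185.1 on the infested arrays. It was 189.0 and 193.8 on the uninfested ones. A 25S ribosomal RNA control read 156.9 and 302.8 on infested 1 and 2, against 94.6 and 133.8 on uninfested 1 and 2. The ratio of 3′ to 5′ signal, a sign of RNA integrity, was 5.70 and 6.56 against 2.70 and 3.88 for one actin pair, and 1.31 and 1.43 against 1.43 and 1.42 for a second. A GAPDH pair had 0.975 and 1.02 against 1.17 and 1.15, and a second GAPDH pair went the opposite way, with 1.14 and 1.17 against 1.09 and 0.980. The ubiquitin pairs had 2.08 and 1.87 against 2.77 and 2.34, and 1.45 and 1.31 against 1.64 and 1.74. Of 6 leaf markers 2 are named in the annotation and both were bright: RCA read 19115 and 17614 against 19523 and 21392, and LHCB4.2 read 14866 and 12928 against 19742 and 21669. The 2 named of 3 guard cell markers were AT1G22690, with 937.6 and 854.2 against 1841 and 1711, and FMA, with 256.1 and 163.9 against 253.4 and 283.5; their summed signal was 1194 and 1018 against 2094 and 1995. The root marker PYK10 read 135.2 and 104.1 against 53.5 and 54.5; the phloem and flower markers have no named probe set here. The part of these values in the levels of the 5 genes was not tested.

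The genes whose profiles over the 4 arrays were most like the mean profile of the 5 were sought among 13643 other probe sets, by the root mean square difference of log2(signal + 16) centred on each probe set's own mean. The 5 genes themselves lay between 0.234 (HSP70B) and 0.869 (Fes1A) from their mean profile. That profile includes signals of HSP101 and HSFA2 at or below the bacterial controls, and some compared genes are as dim on the uninfested arrays. The distances and their order are uncertain to that extent. The nearest 8 with 1 gene in the annotation lay between 0.355 and 0.912, and 8 probe sets without a single gene were nearer than the last. All but 2 of these 8 encode small heat shock proteins, which hold unfolded proteins until HSP70 and HSP101 act on them: AT5G37670, AT1G54050, ATHSP22.0, AT2G29500, AT5G51440 and AT1G53540. The other 2 were AT5G48570 and AT5G25450. AT5G37670, AT5G51440 and AT1G53540 passed the percentile filter only through infested 2, the array on which the mean profile is high. Nothing is therefore read from the number of small heat shock protein genes among the nearest. The nearest, AT5G37670, read 97.8 and 3027 on the infested arrays and 69.5 and 57.4 on the uninfested ones. AT1G54050 read 205.1 and 6825 on the infested arrays, against 320.8 and 293.7 on the uninfested ones, so that infested 1 was the lowest array.

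Several relatives of the 5 genes are on the array by name, and they were tested in one limma fit over 13648 probe sets, those at or above the 40th percentile of mean log2(signal + 16). In that fit 2.83% of probe sets were called higher and 2.54% lower in infested leaves at a Benjamini-Hochberg adjusted p under 0.05, or 9.19% and 10.3% with the replicate number as a block. A list of 120 other chaperone and heat stress genes held 33 with a named probe set, of which 29 were tested. Limma called 3 higher and 0 lower, or 11 and 1 with the block, and 8 and 1 had an unadjusted p under 0.05. Over all tested probe sets, 1931 were higher and 1861 lower at an unadjusted p under 0.05. Of the 29 genes, 3 small heat shock protein genes passed the filter only through infested 2, and 2 of these are among the 11. Nothing is therefore read from the list's counts or median. The list's median log2 difference was 0.72, beside 0.04 for all tested probe sets, and it was 0.33 without infested 2 and 1.04 without infested 1. That median was 0.91 without uninfested 1 and 0.73 without uninfested 2. Leaving out an array leaves 1 array in a group, so no calls are counted from those fits. Infested 2 was at least 2-fold above the highest other array for 15 of the 33 genes, as for 1.3% of all probe sets. The list was drawn up with earlier results of these arrays known. Its heat stress transcription factors, HSP90 genes and HSP100 or Clp ATPase genes have no named probe set and were not analysed by name.

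Among the Hop genes, Hop3 was the one with a large gap between the infested arrays. Hop1 had 427.0 and 324.4 on the infested arrays, against 347.6 and 393.2 on the uninfested ones, a log2 difference of 0.01 ± 0.20 (SE; limma adjusted p = 0.982). Hop2 had 1188 and 1856 on the infested arrays, against 1010 and 838.2 on the uninfested ones, with a log2 difference of 0.68 ± 0.26 (adjusted p = 0.161, or 0.0742 with the block). Hop2 was thus highest on infested 2 as Hop3 was, at 1.55-fold over the next array in place of 36.4-fold. The difference between the paralogs was not tested.

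The Fes1 genes had different signal profiles over the arrays, and the difference between these paralogs was not tested. Fes1B had 591.9 and 325.5 on the infested arrays, against 1102 and 906.8 on the uninfested ones, so that it was lowest on infested 2, where Fes1A was highest. Its log2 difference was -1.16 ± 0.30 (SE), which passed with the block (adjusted p = 0.00669) and not without it (adjusted p = 0.0853, limma). Fes1C had 533.0 and 713.9 on the infested arrays, against 566.8 and 525.0 on the uninfested ones, with overlapping groups and a log2 difference of 0.17 ± 0.20 (adjusted p = 0.609).

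Of the HSP70 and HSP110 list, 4 of 14 genes were tested and 1 rose, or 2 with the block. Of all tested probe sets 2.83% were called higher, or 9.19% with the block. Hsp70-2 (AT5G02490), a cytosolic HSP70 gene, rose to 1195 and 2306 on the infested arrays, against 471.7 and 410.1 on the uninfested ones, a log2 difference of 1.88 ± 0.32 (SE; limma adjusted p = 0.0419). Unlike HSP70B, Hsp70-2 was higher on infested 1 as well. It differed by log2 1.31 within the first same-numbered pair of arrays and by 2.45 within the second. Its log2 difference was 1.41 without infested 2, 1.98 without uninfested 1 and 1.78 without uninfested 2. Each of these fits leaves 1 array in a group, so no test is read from them. AT3G09440, which encodes a constitutive cytosolic HSP70, had 5503 and 6970 against 4815 and 3290 (log2 difference 0.64 ± 0.23, adjusted p = 0.153). AT4G16660, an HSP110-type gene of the endoplasmic reticulum, had 934.2 and 985.1 against 544.9 and 404.9, close to the threshold (log2 difference 1.01 ± 0.20, adjusted p = 0.0512, or 0.0102 with the block). The HSP110-type gene AT1G11660 had a log2 difference of 0.21 ± 0.16. HSP70 genes are similar in sequence, and how far each probe set reads its relatives was not tested.

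Limma without the block called 0 of the 9 co-chaperone genes tested, of 25 listed, against 2 higher and 1 lower with it. At an unadjusted p under 0.05, 1 was higher and 1 lower. Over all tested probe sets the called shares were 2.83% higher and 2.54% lower, or 9.19% and 10.3% with the block. AT5G48570, the FKBP-type co-chaperone gene ROF2, had 384.4 and 7141 on the infested arrays, against 236.0 and 189.4 on the uninfested ones. Infested 1 of ROF2 was above both uninfested arrays, and infested 2 was 17.9-fold above infested 1 on signal + 16. Its log2 difference of 2.90 ± 1.25 (SE) had an adjusted p of 0.202, or 0.0372 with the block. AT2G20560, for a DnaJ protein that delivers substrates to HSP70, had 207.6 and 1875 against 132.7 and 188.9 (1.90 ± 0.94, adjusted p = 0.249, or 0.0309 with the block). AT3G12050, for an activator of the HSP90 ATPase, had 1074 and 2783 against 1111 and 1025, and SGT1A, for an HSP90 co-chaperone of immune receptors, had 1182 and 2872 against 1255 and 1113. In these last genes infested 1 lay between the uninfested arrays, as for HSP70B and Fes1A, and infested 2 was 2.48-fold and 2.27-fold above the highest other array. The p23-type gene AT4G02450 had a log2 difference of 0.25 ± 0.18.

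Of other heat stress targets, HSA32, needed to keep acquired heat tolerance, had 157.8 and 663.1 on the infested arrays, against 157.5 and 149.0 on the uninfested ones (log2 difference 1.02 ± 0.61, SE; limma adjusted p = 0.324). AT1G71000, for a DnaJ protein, and AT4G23493 were too dim to test; their signals were 1.9 and 729.8 against 70.0 and 4.4, and 94.3 and 449.0 against 66.0 and 49.4. In all 3 genes infested 2 alone was high. Of 10 small heat shock protein genes, 7 stood at least 8-fold above the highest other array on infested 2, as did 0.145% of all probe sets. Of these 10 genes 8 were tested and 0 were called higher by limma (1 at an unadjusted p under 0.05), or 4 with the block, beside 2.83% and 9.19% of all tested probe sets. AT1G53540, AT5G51440 and AT5G37670 passed the filter only through infested 2, and 2 of them are among the 4, so nothing is read from these counts. The highest signals were those of AT1G53540 (124.5 and 11210 against 40.3 and 55.7), AT2G29500 (198.8 and 7834 against 82.1 and 108.7), AT1G54050 and AT2G19310 (1076 and 5695 against 805.6 and 943.5).

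Chaperone genes of the endoplasmic reticulum, which fold secreted proteins, were higher on both infested arrays than on both uninfested arrays in 3 of 4 genes, as were 29.3% of all probe sets. Of 15 listed 4 were tested and 2 rose, or 3 with the block, where 2.83% and 9.19% of all tested probe sets were called higher. CRT1b (AT1G09210), a calreticulin gene, rose to 4226 and 3761 on the infested arrays, against 2081 and 1793 on the uninfested ones, a log2 difference of 1.04 ± 0.17 (SE; limma adjusted p = 0.0388). ATERDJ3B (AT3G62600), for a DnaJ protein of the endoplasmic reticulum, rose to 3444 and 4234, against 1724 and 1366 (1.31 ± 0.20, adjusted p = 0.0377). Within the same-numbered pairs CRT1b differed by 1.02 and 1.06 and ATERDJ3B by 0.99 and 1.62. Without infested 2 the log2 differences of CRT1b and ATERDJ3B were 1.12 and 1.16. They were 1.15 and 1.47 without uninfested 1, and 0.93 and 1.14 without uninfested 2. Each of these fits leaves 1 array in a group, so no test is read from them. The calnexin gene AT5G07340 had 909.0 and 904.8 against 541.7 and 545.7 (0.72 ± 0.16, adjusted p = 0.0571, or 0.0239 with the block), and ATERDJ2B had a log2 difference of 0.12 ± 0.23. For comparison, HSP70B, Hop3 and Fes1A differed by 0.00, 0.26 and -0.11 within the first pair and by 5.84, 5.19 and 3.83 within the second. Whether the groups of genes differ in this was not tested.

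Chaperonins, barrel-shaped chaperones of plastids, mitochondria and the cytosol, gave 0 calls by limma among the 3 tested of 9 listed, also with the block, and 0 had an unadjusted p under 0.05. Limma called 2.83% of all tested probe sets higher and 2.54% lower, or 9.19% and 10.3% with the block. The plastid gene Cpn60beta2 had 1151 and 1408 on the infested arrays, against 2344 and 1572 on the uninfested ones (log2 difference -0.59 ± 0.24, SE; limma adjusted p = 0.189). The cytosolic subunit genes AT3G18190 and AT5G20890 had log2 differences of -0.06 and 0.00. A search of annotation names for chaperone words found 8 genes, 4 of them outside the list. Of these 4, Cpn60beta4, a plastid chaperonin gene, fell to 240.2 and 155.7, against 547.8 and 447.8 (-1.29 ± 0.25, limma adjusted p = 0.0488). Its log2 difference was -0.997 without infested 2, -1.14 without uninfested 1 and -1.43 without uninfested 2. Each of these fits leaves 1 array in a group, so no test is read from them. In the fit of all arrays Cpn60beta3 had a log2 difference of 0.34 and CCS had -0.17. BRK1, which was found through an alias and is not a chaperone gene, had -0.27. None of these genes passed the test.

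**Figure D3:**
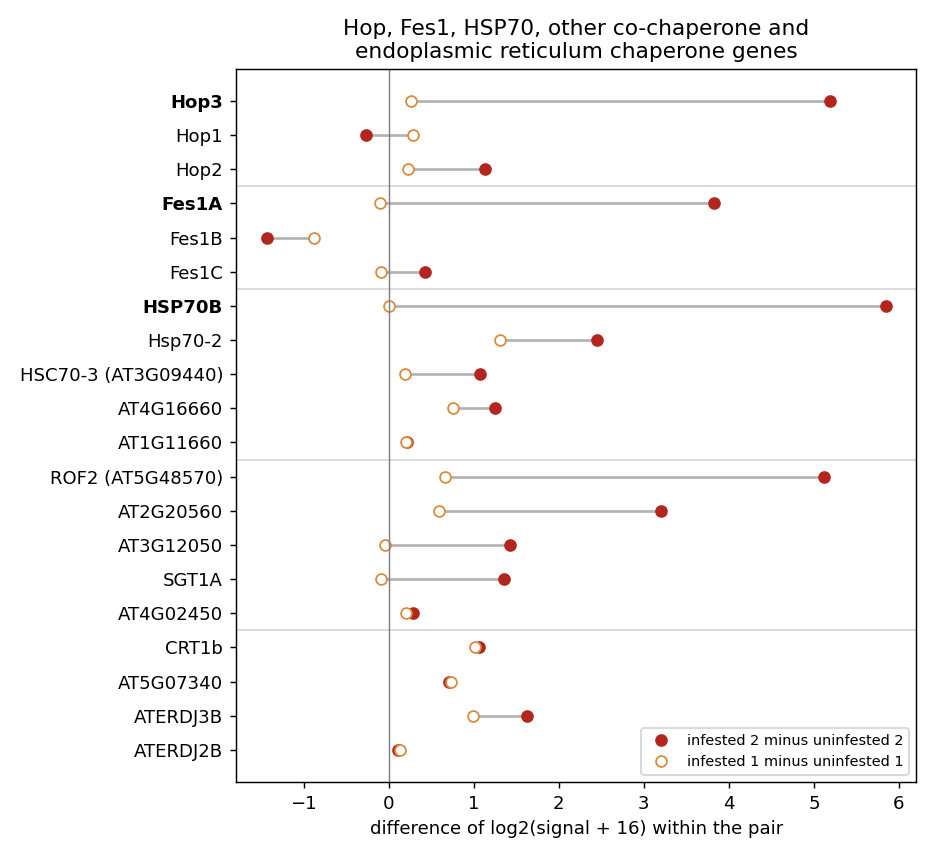
Difference of log2(signal + 16) within each same-numbered pair of arrays, infested 1 minus uninfested 1 (open circles) and infested 2 minus uninfested 2 (filled circles), for Hop, Fes1, HSP70, other co-chaperone and endoplasmic reticulum chaperone genes. Hop3, Fes1A and HSP70B (bold) have circles far apart, at 0.26 and 5.19, -0.11 and 3.83, and 0.00 and 5.84, while those of CRT1b lie at 1.02 and 1.06.

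**Figure D4:**
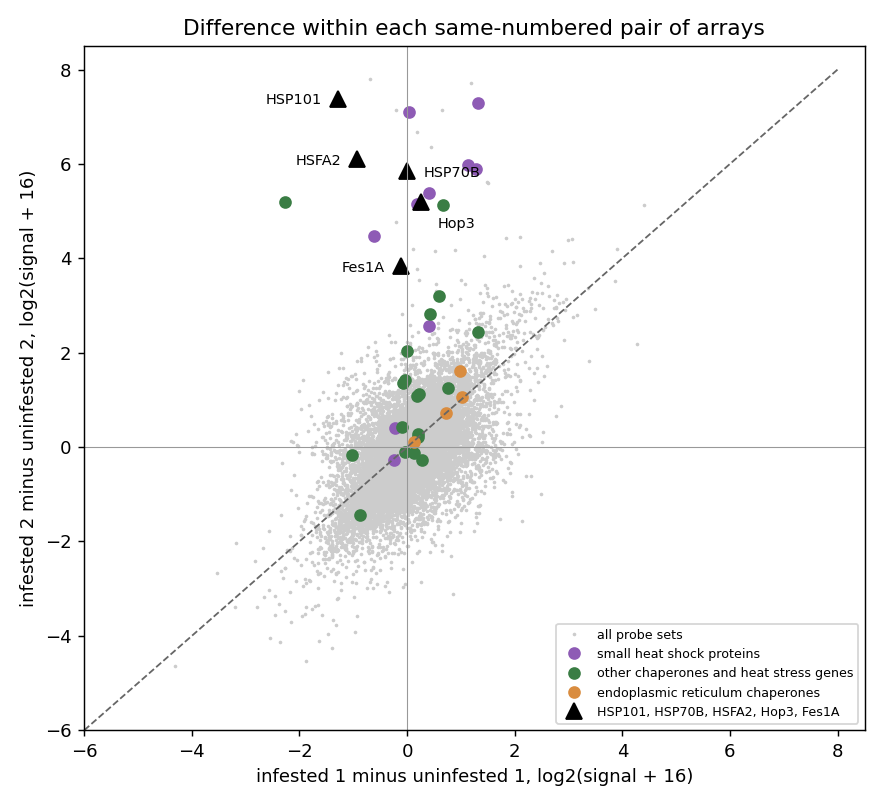
Difference of log2(signal + 16) within the first same-numbered pair of arrays (horizontal axis) and within the second (vertical axis) for every probe set, 1 point each, with chaperone groups coloured and the 5 genes as triangles; the dashed line marks equal differences. HSP70B lies at 0.00 and 5.84 and Fes1A at -0.11 and 3.83; the places of HSP101 and HSFA2 rest on signals at or below the bacterial controls. The 4 endoplasmic reticulum chaperones lie near the dashed line.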

How the data were processed

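The data are 4 one-colour Affymetrix ATH1 arrays of leaf RNA, grouped by their sample titles. The deposited values are MAS 5.0 signal intensity, computed by the authors at standard settings per the labels; the version is not given in the sources used here. With 2 arrays per group, their number limits the precision, and p-values measure the spread between pools. Detection calls were not used here. Here log2(signal + 16) was used without further rescaling, and probe sets with a mean below the 40th percentile were left out, 9098 in all.

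The fit used limma 3.58.1 in R 4.3.3 (lmFit, eBayes with a variance trend), with Benjamini-Hochberg adjustment over all tested probe sets. It was run on simulated data with 1 spread for all probe sets and equal shifts on both infested arrays. These data differ from that setting, so the run checks the code only. Of 22746 probe sets, 13513 had 1 gene in the platform annotation, 503 had several and 8730 none; 13436 matched RefSeq (TAIR10.1), used for names only. Since infested and control plants of one experiment shared a growth chamber, per the series text, equal replicate numbers were read as a shared experiment; same-numbered deviations from the group means had a correlation of 0.264 across probe sets. The blocked fit has 1 residual degree of freedom, and a gene high on 1 array alone can pass it.

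Named were the 5 genes, every listed gene with a probe set (of small heat shock proteins the 4 brightest), the 8 nearest profiles, and genes with chaperone words in their names. The members and lists were chosen with earlier results of these data known. Alternatives were another pseudocount, filter or scaling, the block, and leaving out each array.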

Additional observations from a re-analysis of the deposited data

Results flagged for a closer look

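A signal outside the comparisons, the 25S ribosomal RNA control, had a mean in infested leaves 2.01 times that in uninfested leaves, and it was highest on infested 2.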

How the results depend on the processing

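The median log2 difference of the 5 genes ran from -0.018 to 5.68 when single arrays were left out, the lowest without infested 2 and the highest without infested 1; it lay between 2.34 and 2.91 with another pseudocount or scaling, and at 2.72 with dim signals raised to the bacterial controls. HSP101 and HSFA2 enter these medians with signals at or below those controls. With the replicate block 1254 probe sets were called higher and 1403 lower, in place of 386 and 347, and 11 and 1 in place of 3 and 0 of the listed genes. With every probe set tested limma called 0 and 0 (2453 and 2203 at an unadjusted p under 0.05), and 0 of the listed genes (8 and 1). Median scaling gave 354 higher and 592 lower, and a filter at the 60th percentile 5 higher listed genes. When single arrays were left out, the counts ran from 0 to 2065 higher and from 0 to 2487 lower over all probe sets, and from 0 to 19 higher and 0 to 1 lower in the list. At 4-fold in place of 8-fold, 52 probe sets stood apart on infested 2. With a pseudocount of 1, 4 stood 8-fold above on infested 1 and 1 on uninfested 1. With every probe set tested, Hsp70-2, CRT1b, ATERDJ3B and Cpn60beta4 lost their calls (limma adjusted p = 0.0827, 0.0782, 0.0769 and 0.0963). Other genes gained a call with the block, which a gene high on 1 array alone can pass. Some differences changed sign without infested 2, such as that of AT1G54050, from 1.93 to -0.55. With a pseudocount of 1, HSP101 and HSFA2 fell below the filter. The causes were not tested.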
